A study of Mus musculus with 6 samples.

Results

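Hearts of GRK-Inh-transgenic mice, which express a peptide inhibitor of G-protein-coupled receptor kinases in the myocardium, were compared with hearts of B6 control mice across all measured genes. The comparison used 4 of the 6 Affymetrix mouse arrays of the study, 2 in each group, and the probe sets that carry a single gene symbol, with the brightest probe set standing for a gene. Of 18193 genes, 11254 were bright enough to be tested. All mice were male, aged 2 months and of a B6 strain background. The labels describe the GRK-Inh-transgenic mice as a single line with myocardium-specific expression, without naming its promoter, and the controls as wild type. The other 2 arrays came from RKIP-transgenic hearts, where RKIP is driven by the alpha-MHC promoter of cardiomyocytes. They served here as a second reference and shared the fit. Pebp1, the mouse gene of RKIP, did not show the label: it was at 9102 and 9140.4 on the RKIP arrays against 9292 and 8766 on the control arrays and was not called (0.02), and its other probe set gave 5912 and 5567 against 5284 and 5622. Whether these probe sets read the transgene was not tested, so RKIP-transgenic is used below as the label of these arrays, in every comparison with them. Levels of the inhibitor transgene itself were not analysed here. Nothing in the labels says that a group's arrays came from separate animals, so p-values here reflect the spread between samples alone, and that spread may be technical.

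G-protein-coupled receptor kinases phosphorylate activated receptors, after which arrestins bind and uncouple them from their G proteins. In heart muscle the best-known targets are the beta-adrenergic receptors, which act through Gs, adenylyl cyclase, cAMP and protein kinase A. Receptors for angiotensin II, endothelin and alpha-adrenergic agonists act largely through Gq and phospholipase C, and RGS proteins shorten the signal of Gq and Gi.

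Signals below are the authors' scaled linear values, and differences are log2 ratios of the signal plus 50, GRK-Inh over control, with the standard error (SE) of the fit. A gene was called at a limma adjusted p under 0.05. The arrays had the same trimmed mean, 300.002, and median signals of 50.3 and 51.5 in the GRK-Inh group and 53.1 and 55.0 in the control group. The SD of the log2 difference was 0.206 to 0.209 between arrays of a group and 0.306 to 0.314 between a GRK-Inh and a control array. The 3' to 5' ratio of the actin control probe sets was 3.029 and 2.998 against 3.25 and 3.11. Of 10 cardiomyocyte markers, 0 rose and 1 fell, namely Ckm by 0.13, and their summed signal was 237264 and 238465 against 250628 and 244210.0. The Ckm call was lost under 8 of 15 alternatives.

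In all, 659 genes rose (5.86% of those tested) and 818 fell (7.27%), and the median difference over all tested genes was -0.03. Those 2 shares are the background for every list count below. The rise reached 2-fold for 38 genes (0.338%) and the fall for 31 (0.275%). The share of higher genes among those called was 44.6%, and 60.0% when the arrays were shifted to one median. Arrays of the groups did not overlap for 6405 genes, 56.9% of those tested. Among the gene lists with at least 10 tested members, the highest shares of genes called higher were in immediate early genes and in chaperones of the cytosol and endoplasmic reticulum, and the highest shares called lower in matrix genes and fibroblast markers. Tfrc, the gene of the transferrin receptor, fell most. Without a trend in the variance 731 genes were called, and 22 of the 33 list counts of at least 4 genes fell by more than 1.5 times. The plot of all genes sets the difference against the level.

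**Figure D1:**
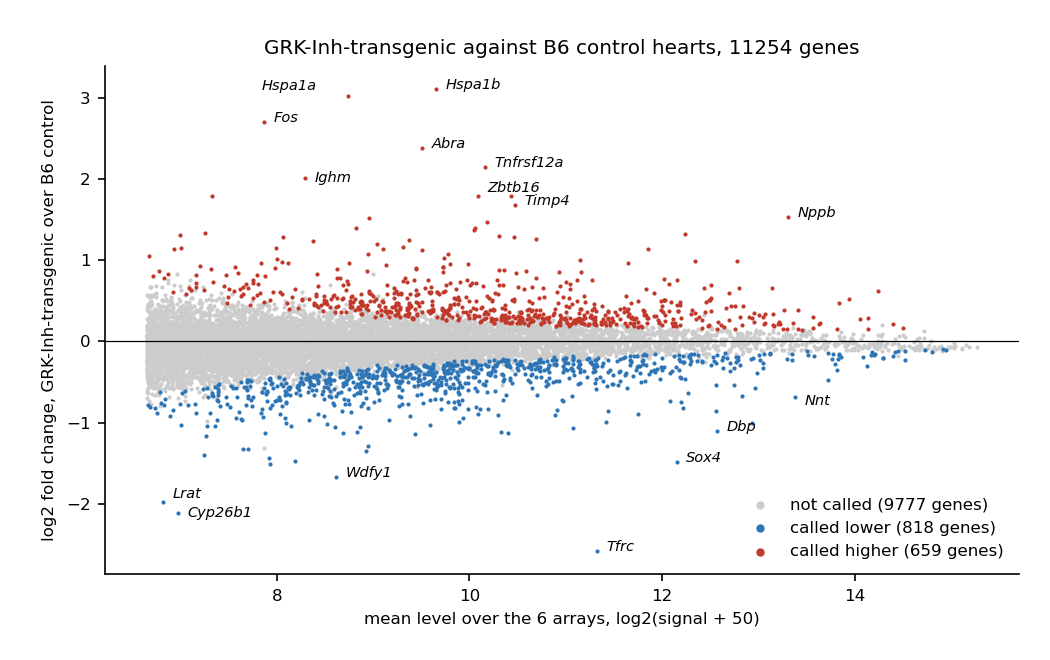
Log2 difference between GRK-Inh-transgenic and B6 control hearts (vertical axis) against the mean level over the 6 arrays, log2 of signal plus 50 (horizontal axis), 1 point per tested gene. Red points are the 659 genes called higher, blue points the 818 called lower, and grey points were not called; Hspa1b and Hspa1a lie highest and Tfrc lowest.

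**Figure D2:**
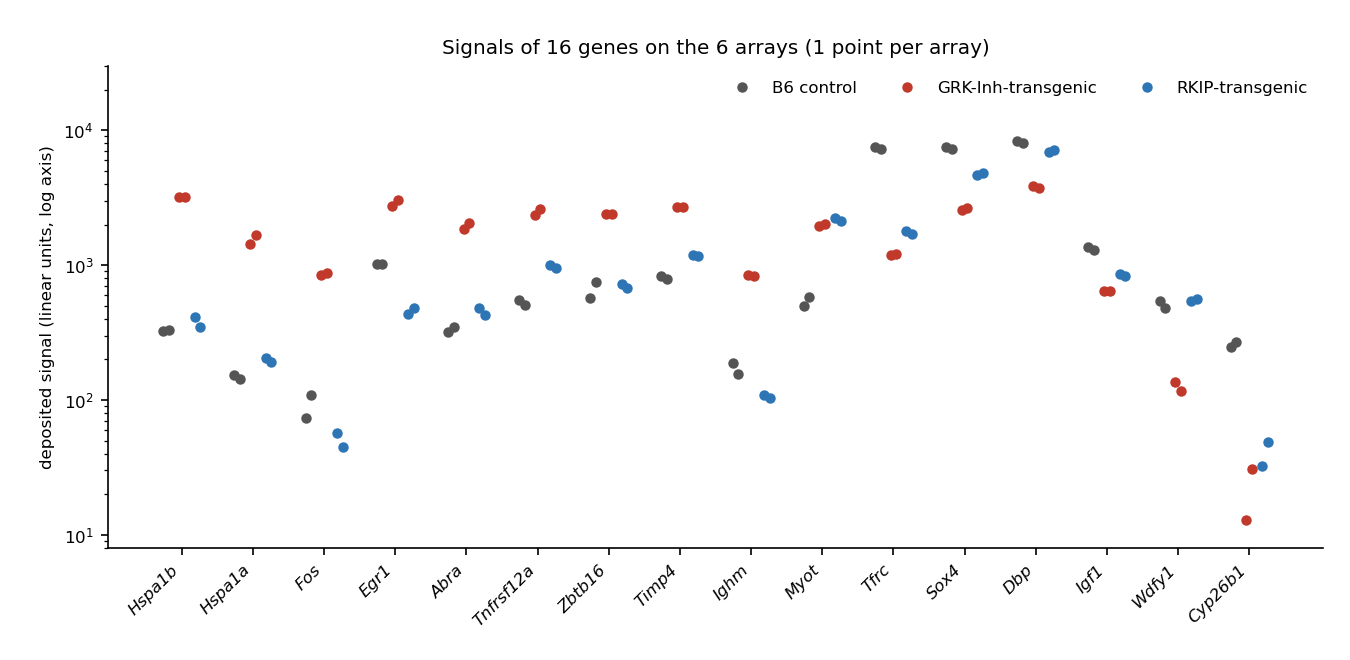
Deposited signal on a log axis for 16 genes on each array, 1 point per array, with B6 control in grey, GRK-Inh-transgenic in red and RKIP-transgenic in blue. In every gene shown the red points lie apart from the grey points, as they do for 56.9% of all tested genes. For Myot and Cyp26b1 red and blue lie close together.

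Receptor kinases and arrestins are the direct targets of such an inhibitor and their partners. In their list of 9 genes, 8 were measured, and 1 of 6 tested genes rose and none fell. The 6 were Grk3, Grk5, Grk6, Arrb1, Arrb2 and Pebp1, which is neither a receptor kinase nor an arrestin. Grk2 was not among them. The gene that rose was Grk5, a kinase abundant in heart, at 867 and 773 on the GRK-Inh arrays and 596 and 540.5 on the control arrays (0.49 ± 0.087, adjusted p = 0.00354). Grk5 did not overlap between the groups, as for 56.9% of all tested genes. In RKIP-transgenic hearts it stood at 828 and 870.3. The kinase gene Grk3 differed by -0.21 (adjusted p = 0.243) and Grk6 by -0.02 (adjusted p = 0.949). The arrestin genes Arrb1 and Arrb2 differed by -0.03 and -0.20 (adjusted p = 0.911 and 0.44). Grk1 and Grk4 were below the filter on every array, with signals of at most 49.7.

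Of 32 genes of adrenergic receptors and cAMP signalling, 3 rose and 2 fell, beside shares of 5.86% and 7.27% over all tested genes. The list median was -0.03, the same as over all tested genes. Adcy6, a main adenylyl cyclase of heart muscle, rose from 1914 and 1712 to 2307 and 2382 (0.36 ± 0.064, adjusted p = 0.00368). Pde2a, a cGMP-stimulated phosphodiesterase, fell from 2536 and 2378 to 1966 and 1881 (-0.34 ± 0.058, adjusted p = 0.00286). Groups did not overlap for either gene, as for 56.9% of all tested genes. Both calls were lost without a trend in the variance, where no gene of the list was called. The alpha-adrenergic receptor gene Adra1b was at 68.6 and 70.5 against 106 and 121 and did not pass (-0.45 ± 0.17, adjusted p = 0.103). The list's calls were few, and leaving out GRK-Inh array 1, GRK-Inh array 2, B6 array 1 and B6 array 2 in turn gave 2, 1, 1 and 1 higher genes.

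Of 26 tested genes of Gq signalling and RGS proteins, none rose and 8 fell, with a median of -0.16. Aplnr, the apelin receptor, had the largest fall, from 3669 and 3221 to 1533 and 1699.8 (-1.07 ± 0.093, adjusted p = 3.59e-05). The angiotensin receptor gene Agtr1a was at 615 and 792 against 1015 and 909 (-0.43 ± 0.11, adjusted p = 0.0216), and that call was lost under 5 of 15 alternatives. F2r, the thrombin receptor, fell by 0.39, and Ednrb, S1pr3 and Gnaq, which encode the endothelin B receptor, a sphingosine phosphate receptor and the Gq subunit itself, fell by 0.34, 0.32 and 0.28. Rgs2, an RGS protein that acts on Gq, fell from 2147 and 2141 to 1718 and 1581 (-0.37 ± 0.061, adjusted p = 0.00248). In RKIP-transgenic hearts it was lower still, at 1284 and 1281. With GRK-Inh array 1, GRK-Inh array 2, B6 array 1 and B6 array 2 left out in turn, 5, 7, 6 and 5 members fell.

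The kinases RAF, MEK and ERK carry growth signals from receptors, and ERK induces its own inhibitors, among them dual-specificity phosphatases. Of 23 tested genes, 4 rose and 2 fell, with a median of 0.05, beside shares of 5.86% and 7.27% over all tested genes. Dusp6, a phosphatase of ERK, rose from 962 and 961 to 1297 and 1301 (0.41 ± 0.066, adjusted p = 0.00192), and the RKIP arrays gave 808 and 797. Dusp8, at 543 and 529 against 275 and 307, rose by 0.78 ± 0.16 and lost its call under 2 of 15 alternatives. Phlda1 fell (-0.58 ± 0.051, adjusted p = 3.96e-05). The tested RAF, MEK and MAP kinases were not called, with differences of 0.11 for Map2k1, 0.05 for Braf and 0.13 for Araf. With single arrays left out, 3, 2, 1 and 2 genes rose.

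Immediate early genes respond within minutes to receptor, stretch and stress signals, without new protein synthesis. Of 26 tested members, 16 rose and 1 fell, and the median was 0.61 against -0.03 over all genes. Fos, a subunit of AP-1, was at 838 and 880.2 on the GRK-Inh arrays, 72.9 and 108 on the control arrays and 57.3 and 44.4 on the RKIP arrays. Egr1, a zinc finger factor, was at 2751 and 3050.2, 1011 and 1013 and 434 and 479.8 in the same order. For both genes all GRK-Inh values lay above all others and the RKIP values lay below the control values. Egr1 rose against control (1.47 ± 0.076, adjusted p = 7.33e-07) and was higher than in RKIP-transgenic hearts by 2.54. The nuclear receptor gene Nr4a3 rose from 34.9 and 68.9 to 322 and 276 (1.79 ± 0.19, adjusted p = 0.000123), and this difference ranged over 0.99 to 2.26 with the offset and other settings. Nr4a1, another member of that family, was at 425 and 404 in the GRK-Inh group and 128 and 171 in controls, and at 361 and 334 in the RKIP group, where it was called against control too. The messenger RNA decay factor Zfp36, the matricellular gene Ccn1 and the antiproliferative gene Btg2 rose by 0.97, 0.96 and 0.92. Jun and Jund, partners of Fos in AP-1, rose by 0.59 and 0.76, and Dusp1, the phosphatase of stress kinases, by 0.76. Klf10 was the member that fell, by 0.65. Junb (0.42), Egr3 (0.63) and Myc (0.05) were not called. Counts of members called higher were 15, 15, 16 and 15 with the 4 arrays of both groups left out in turn.

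Heat shock chaperones keep client proteins folded, and the transcription factor HSF1 induces them by binding heat shock elements. Of 27 tested genes, 17 rose and 0 fell, with a median of 0.46. Hspa1b was at 3185 and 3188 on the GRK-Inh arrays against 322 and 330.4 on the control arrays, and 2 further probe sets of the gene gave 2.32 and 2.41. Hspa1a was at 1439.5 and 1662 against 153 and 143. Signal of these near-identical paralogs cannot be assigned to either with certainty. Hspa1l, a related gene of the same cluster, rose from 43.5 and 51.7 to 205 and 188, and this difference ranged over 0.68 to 1.74 with the offset and other settings. Among the partners of HSP70, the nucleotide exchange factors Hsph1 and Bag3 rose by 1.395 and 0.75, and the J-domain proteins Dnajb4, Dnaja1 and Dnajb1 by 0.98, 0.97 and 0.69. Hsp90aa1, the inducible HSP90, rose from 3224 and 3315 to 7782 and 8768, and its cochaperones Chordc1, Ahsa1 and Stip1 by 0.71, 0.61 and 0.29. The mitochondrial chaperones did not pass, with 0.13 for Hspd1, 0.11 for Hspe1, 0.10 for Hspa9 and -0.01 for Trap1. Cryab, an abundant small heat shock protein of heart muscle, was not called either (0.13).

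To show what these promoters hold, the RefSeq windows of 250 bases before to 50 after the start site (GRCm38.p6) were searched on both strands for the heat shock element, taken as 3 units of GAA or TTC in alternating orientation with 2 bases between units. A match was found in 4 of 23 members with a window (17.4%) and in 54 of 9100 tested genes with a window (0.593%). Among members called higher it was found in 2 of 15 (13.3%). Of the matches, Hsph1 and Chordc1 rose, while Hspd1 and Hspe1, which lie head to head, did not pass. The windows of 3 genes are printed 5′ to 3′ in the direction of the gene, with the matched bases in capitals. Hsph1 is at chr5:149636287-149636586 on the minus strand, Chordc1 at chr9:18292017-18292316 on the plus strand, and Hspe1 at chr1:55087898-55088197 on the plus strand.
Hsph1: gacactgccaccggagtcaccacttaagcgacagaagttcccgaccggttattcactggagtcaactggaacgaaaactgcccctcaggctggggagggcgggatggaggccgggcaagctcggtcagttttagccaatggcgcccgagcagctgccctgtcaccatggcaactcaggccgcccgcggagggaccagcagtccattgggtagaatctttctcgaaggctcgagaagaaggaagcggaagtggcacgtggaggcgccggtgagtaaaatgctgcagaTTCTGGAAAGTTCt
Chordc1: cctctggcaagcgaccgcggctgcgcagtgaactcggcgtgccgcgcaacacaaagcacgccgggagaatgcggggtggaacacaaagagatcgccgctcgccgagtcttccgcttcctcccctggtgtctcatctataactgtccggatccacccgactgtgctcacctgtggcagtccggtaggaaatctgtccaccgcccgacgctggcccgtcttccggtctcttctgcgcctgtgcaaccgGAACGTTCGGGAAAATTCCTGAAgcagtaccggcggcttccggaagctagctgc
Hspe1: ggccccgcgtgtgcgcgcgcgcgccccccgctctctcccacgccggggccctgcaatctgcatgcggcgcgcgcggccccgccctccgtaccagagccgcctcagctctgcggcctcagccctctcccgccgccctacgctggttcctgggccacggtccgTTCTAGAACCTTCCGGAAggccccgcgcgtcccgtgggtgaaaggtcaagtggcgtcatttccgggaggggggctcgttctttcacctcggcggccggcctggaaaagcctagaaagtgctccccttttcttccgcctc
The first 2 belong to genes that rose and the last to a gene that did not pass. A match is only a description of letters in the window.

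Proteins that fold in the endoplasmic reticulum are served by a separate chaperone set, which the factors ATF6 and XBP1 induce through the ER stress element when unfolded protein builds up. Of 26 tested genes, 16 rose and 0 fell, with a median of 0.40. Manf, a secreted protein of this response, rose from 860.2 and 847 to 2187 and 2130.4 (1.29 ± 0.065, adjusted p = 6.33e-07). Creld2 rose from 356 and 315 to 821 and 769.7, and in RKIP-transgenic hearts it lay between, at 440.3 and 476. Dnajc3, which restrains the kinase PERK, rose from 1418 and 1584 to 2482 and 2399. Other members that rose were the HSP70 of this compartment, Hspa5 (0.52), the HSP90 of this compartment, Hsp90b1 (0.41), the disulfide isomerases Pdia6 (0.68), Pdia4 (0.45) and Pdia3 (0.29), and Syvn1 (0.62), a ubiquitin ligase that removes misfolded proteins. The regulators Xbp1 and Atf6 rose by 0.51 and 0.39. Calr, a lectin chaperone, stood at -0.01, and Hyou1 at 0.40, neither called.

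The ER stress element, taken as CCAAT and CCACG with 9 bases between them on either strand, was found in the windows of 10 of 22 members (45.5%), 7 of 14 of those called higher (50%), and in 15 of 9100 tested genes (0.165%). Of all 32851 windows, 0.119% held it. Windows of 4 members are shown, as they carry the element and the genes rose: Creld2 at chr15:88819396-88819695, Dnajc3 at chr14:118937682-118937981, Pdia6 at chr12:17266339-17266638 and Hspa5 at chr2:34771840-34772139, all on the plus strand. Capitals mark the match, which can lie on either strand.
Creld2: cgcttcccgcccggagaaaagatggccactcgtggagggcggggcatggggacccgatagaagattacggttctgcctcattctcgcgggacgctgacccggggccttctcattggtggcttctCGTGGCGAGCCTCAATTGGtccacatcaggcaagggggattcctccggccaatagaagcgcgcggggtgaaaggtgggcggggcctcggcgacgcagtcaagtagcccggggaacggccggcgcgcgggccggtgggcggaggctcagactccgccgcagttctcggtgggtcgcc
Dnajc3: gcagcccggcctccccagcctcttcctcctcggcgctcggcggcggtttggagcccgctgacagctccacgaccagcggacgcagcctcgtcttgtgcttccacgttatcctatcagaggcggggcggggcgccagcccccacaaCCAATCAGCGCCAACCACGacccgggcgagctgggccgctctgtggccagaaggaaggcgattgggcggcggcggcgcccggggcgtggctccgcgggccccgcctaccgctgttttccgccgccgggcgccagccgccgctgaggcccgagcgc
Pdia6: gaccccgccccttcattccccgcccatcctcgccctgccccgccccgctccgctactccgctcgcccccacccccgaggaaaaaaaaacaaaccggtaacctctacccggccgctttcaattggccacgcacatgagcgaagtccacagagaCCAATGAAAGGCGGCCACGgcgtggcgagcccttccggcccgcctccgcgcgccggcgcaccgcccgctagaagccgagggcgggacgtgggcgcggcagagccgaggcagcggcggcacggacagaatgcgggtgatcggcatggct
Hspa5: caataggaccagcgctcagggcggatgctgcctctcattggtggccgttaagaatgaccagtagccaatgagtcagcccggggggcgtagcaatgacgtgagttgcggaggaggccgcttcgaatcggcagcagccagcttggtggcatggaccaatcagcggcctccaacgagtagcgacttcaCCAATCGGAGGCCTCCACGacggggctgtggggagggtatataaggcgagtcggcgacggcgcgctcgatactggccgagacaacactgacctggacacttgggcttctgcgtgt
Calr also held a match and was not called. For immediate early genes, the cAMP response element TGACGTCA was present in 3 of 20 windows against 3.45% of tested genes, and the CArG box of serum response factor in 1 of 20 against 1.58%.

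The integrated stress response, which works through ATF4, was less uniform. Of 19 tested genes 5 rose and 1 fell, with a median of 0.27. Ddit4, an inhibitor of mTORC1, rose from 487 and 491 to 1136 and 1107 (1.12 ± 0.076, adjusted p = 5.57e-06), and Ddit3, the factor CHOP, by 0.59 ± 0.085. Chac1, a glutathione-degrading enzyme, fell from 259 and 262 to 48.8 and 104. Atf4 itself (0.23) and the asparagine synthetase gene Asns (0.20) were not called.

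**Figure D3:**
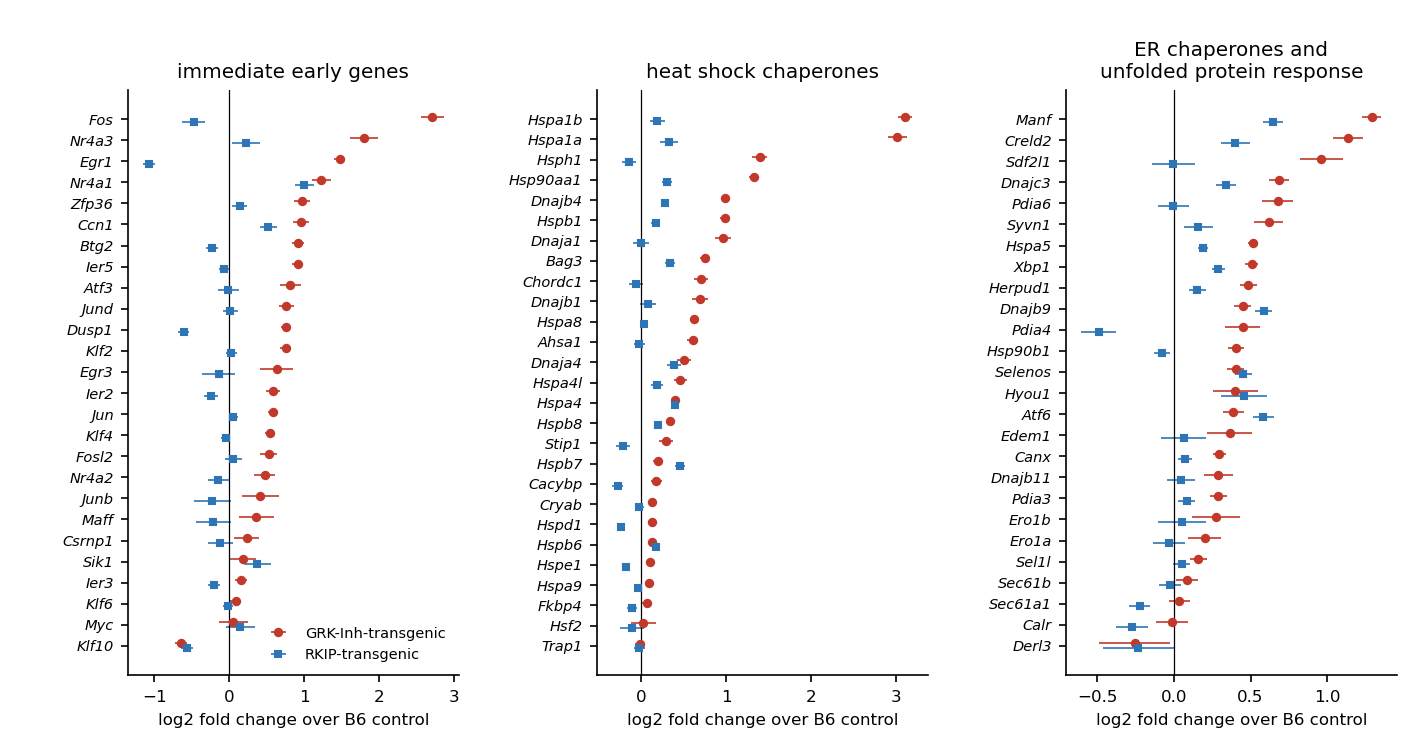
Log2 difference from B6 control (horizontal axis, points with bars of 1 SE) of the tested immediate early genes, heat shock chaperones and ER chaperones, for GRK-Inh-transgenic (red circles) and RKIP-transgenic hearts (blue squares). Red points lie right of 0 for all but 4 genes shown, and most blue points lie closer to 0 than the red point of the same gene.

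Against RKIP-transgenic hearts, measured in the same fit, 490 genes were higher in the GRK-Inh hearts (4.35%) and 503 lower (4.47%), 8.82% in all. At least 2-fold differences were 34 higher (0.302%) and 10 lower (0.0889%). RKIP-transgenic hearts themselves had 599 genes higher (5.32%) and 620 lower (5.51%) than control. They had 2 higher and 3 lower immediate early genes, 8 and 3 heat shock genes, and 8 and 1 ER genes. Several other lists gave counts near those of GRK-Inh hearts. These RKIP counts were 10 and 4 for hypertrophy, 7 and 2 for glucose, 5 and 0 for ketone and 4 and 0 for beta-oxidation genes. Proteasome and NRF2 genes gave 8 and 0 each, ATF4 genes 4 and 0, and Gq genes 0 and 6. In the contrast of the lines the share of higher genes among those called was 49.3%, or 65.4% with arrays shifted to one median. Of the immediate early genes 17 were higher and 0 lower, of the heat shock genes 17 and 1, and of the ER genes 14 and 0. Hspa1b differed between the lines by 2.91 ± 0.087, adjusted p = 1.64e-08, Fos by 3.17 ± 0.15, adjusted p = 6.1e-07 and Sdf2l1, an ER chaperone component, by 0.97 ± 0.14, adjusted p = 0.00188. For Manf the difference was 0.64 ± 0.065, adjusted p = 0.000153. Hspa4, Dnajb9 and Selenos differed from RKIP-transgenic hearts by -0.00, -0.14 and -0.05 and were not called. Of the matrix list 7 were higher and 1 lower, with a median of 0.05. Since the comparisons with control share the control arrays, only this contrast tests the difference of the lines.

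Of 26 hypertrophy, fetal and stretch genes, 11 rose and 2 fell. Abra, which links actin to serum response factor, was at 1856 and 2049 against 318 and 349, Nppb at 15775 and 15687 against 5374 and 5496 and Rcan1, an inhibitor of calcineurin, at 2649.6 and 2763 against 1121 and 1072. Ccn2, a matricellular growth factor, was at 7427 and 7676 on the GRK-Inh arrays, 3404 and 3396 on the control arrays and 1901 and 1846 on the RKIP arrays, so the lines lay on opposite sides of control. Tnfrsf12a, the TWEAK receptor, was at 2363 and 2611 against 547 and 503 and 1001 and 955 in RKIP hearts. Xirp1 and Ankrd23, actin- and titin-associated proteins of stretched muscle, rose by 0.74 and 0.95. Acta1 was at 2953 and 3036, above the control arrays (2122 and 1909) and below the RKIP arrays (4919 and 4981), and the lines differed by -0.72 ± 0.057, adjusted p = 2.88e-05. Myh7 was at 3735 and 3045 against 3485 and 3274, with overlap, and 6092 and 6179 in RKIP hearts. Nppa was not called (-0.10 ± 0.032, adjusted p = 0.0609), although it passed under 2 alternatives. No member fell when GRK-Inh array 1 or 2 was left out, against 2 with all arrays.

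Among sarcomere and Z-disc genes, 6 of 29 rose and 1 fell, and 10 rose with quantile normalization or with the arrays shifted to one median. Myot, encoding myotilin of the Z-disc, was at 1954 and 2013 on the GRK-Inh arrays, 496 and 579 on the control arrays and 2231 and 2136 on the RKIP arrays, and the difference between the lines was not called (-0.14 ± 0.076, adjusted p = 0.323). The actin cross-linker Flnc rose by 0.60 ± 0.096 and the Z-disc protein gene Mypn by 0.40 ± 0.064. Tcap, the titin cap, fell from 15654 and 15425 to 10969.6 and 11357 (-0.48 ± 0.036, adjusted p = 1.24e-05). The core genes Tnnt2 (-0.04), Ttn (-0.11) and Mybpc3 (-0.01) were not called.

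**Figure D4:**
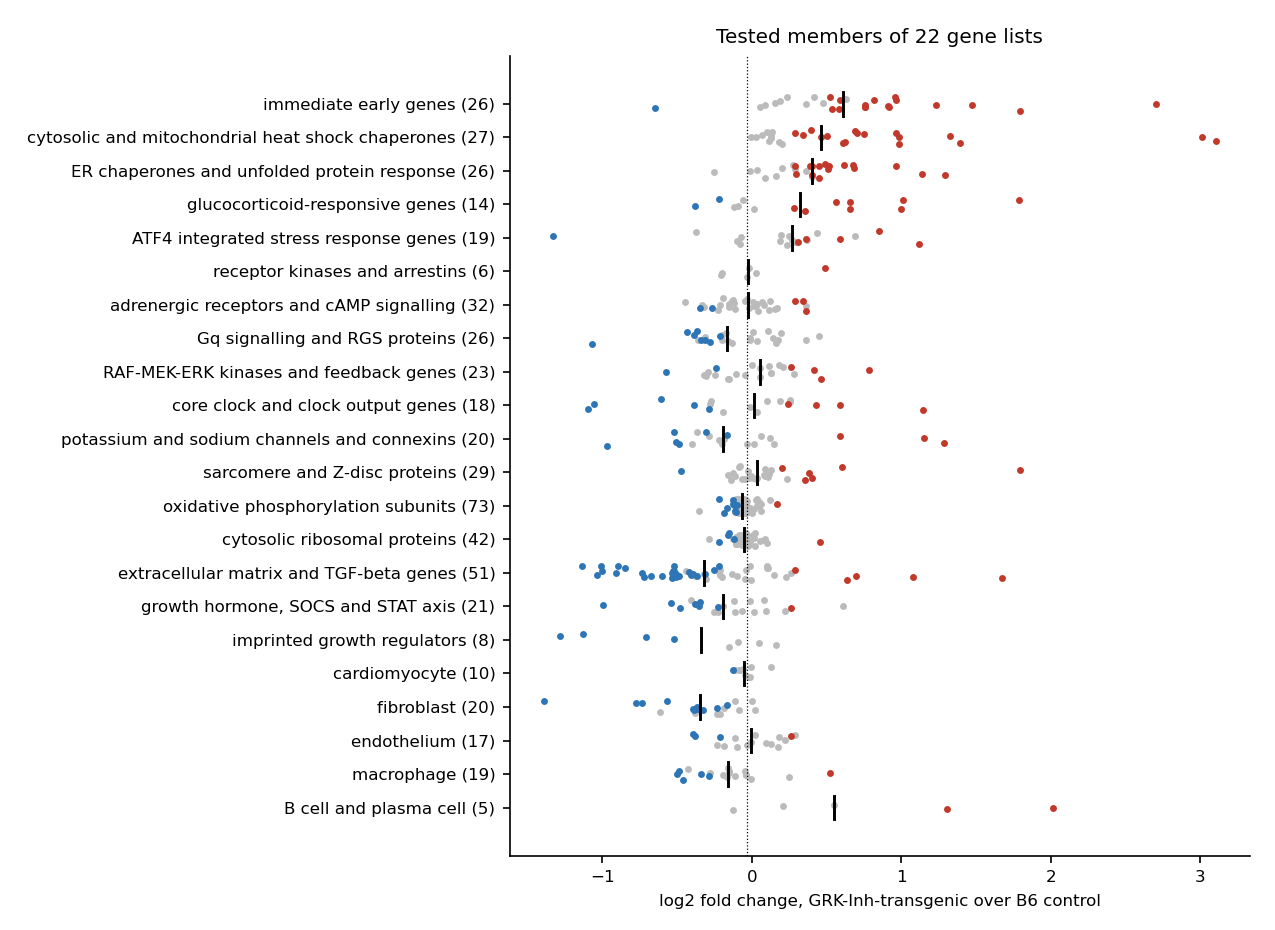
Log2 difference between GRK-Inh-transgenic and B6 control hearts for the tested members of 22 lists, 1 point per gene, red called higher, blue called lower, grey not called, with a black bar at each list's median and a dotted line at the median of all tested genes. Numbers in parentheses give tested members; the medians of immediate early and chaperone lists lie to the right and those of matrix, imprinted and fibroblast lists to the left.

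Ion channels split by gene. Of 20 tested channels and connexins, 3 rose and 6 fell. Kcnv2, a modifier subunit of potassium channels, rose from 119 and 102 to 334 and 344, and Scn4b, a sodium channel beta subunit, from 84.9 and 105 to 268 and 276, where RKIP hearts had 274 and 341. Kcna5, the channel of a rapid potassium current, rose by 0.59 ± 0.091 and was higher than in RKIP hearts. The repolarizing channels Kcnq1 and Kcnh2 fell by 0.50 and 0.49, and Kcne1, the beta subunit of the Kcnq1 channel, from 297 and 303 to 133 and 126. The ventricular connexin gene Gja1 fell by 0.31. Of 22 genes of calcium handling 4 rose and 3 fell, and with GRK-Inh array 1, GRK-Inh array 2, B6 array 1 and B6 array 2 left out 1, 2, 1 and 1 rose and 2, 1, 0 and 0 fell. Over all tested genes 5.86% rose and 7.27% fell. With quantile normalization 2 calcium genes rose, and with the arrays shifted to one median 1 fell. Without a trend in the variance no gene of the calcium list was called. The 3 that fell in the main test differed by -0.80 to -0.11, among them Casq1 (-0.80) and Cacna2d1 (-0.23). Those that rose included Cacna1c (0.30) and Hrc (0.23). Each of these named calls was lost under at least 1 alternative. Atp2a2, the calcium pump of the sarcoplasmic reticulum, differed by -0.11 ± 0.031, and the release channel Ryr2 was not called (-0.01).

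Glucocorticoid-responsive genes are induced by the hormone receptor Nr3c1, itself lower by 0.22. Of 14 tested members 8 rose and 2 fell, with a median of 0.32. Zbtb16, a zinc finger repressor, was at 2380.3 and 2388 on the GRK-Inh arrays, 566 and 754 on the control arrays and 727 and 674 on the RKIP arrays, and its other probe sets gave 1.77 and 1.82. Sgk1, the serum- and glucocorticoid-regulated kinase, rose from 1742 and 1894 to 3629 and 3727, and Cdkn1a, an inhibitor of cell cycle kinases, from 147 and 161 to 385 and 339. None of the 3 overlapped between groups, which held for 56.9% of all tested genes too. Fkbp5, a chaperone that damps the receptor, rose by 0.56 and Tsc22d3 by 0.28. Leaving out GRK-Inh array 1, GRK-Inh array 2, B6 array 1 and B6 array 2 gave 7, 6, 6 and 8 higher members and 1, 0, 0 and 1 lower ones.

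The clock genes form a feedback loop in which ARNTL and CLOCK drive the Per and Dbp genes. Of 18 tested genes 4 rose and 5 fell. Arntl rose from 37.9 and 36.9 to 147 and 139 (1.14 ± 0.17, adjusted p = 0.00129), and this difference ranged over 0.53 to 1.57 with the alternatives, as its control signals lay below the filter level of 50.2. The output factor Dbp fell from 8327 and 8041 to 3837 and 3758 (-1.10 ± 0.043, adjusted p = 8.35e-08). Per3 fell from 600.4 and 573 to 272 and 241, and the rhythm regulator Nfil3 rose by 0.59. The fall of Hlf, another output factor, was called (-0.61 ± 0.18, adjusted p = 0.0459) and lost under 9 of 15 alternatives. Per1 (-0.01) and Nr1d1 (-0.28) were not called. The labels give no time of day for the hearts, and its part in these values was not tested. With the arrays left out in the same order, 3, 2, 5 and 2 clock genes rose and 4, 4, 3 and 4 fell.

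**Figure D5:**
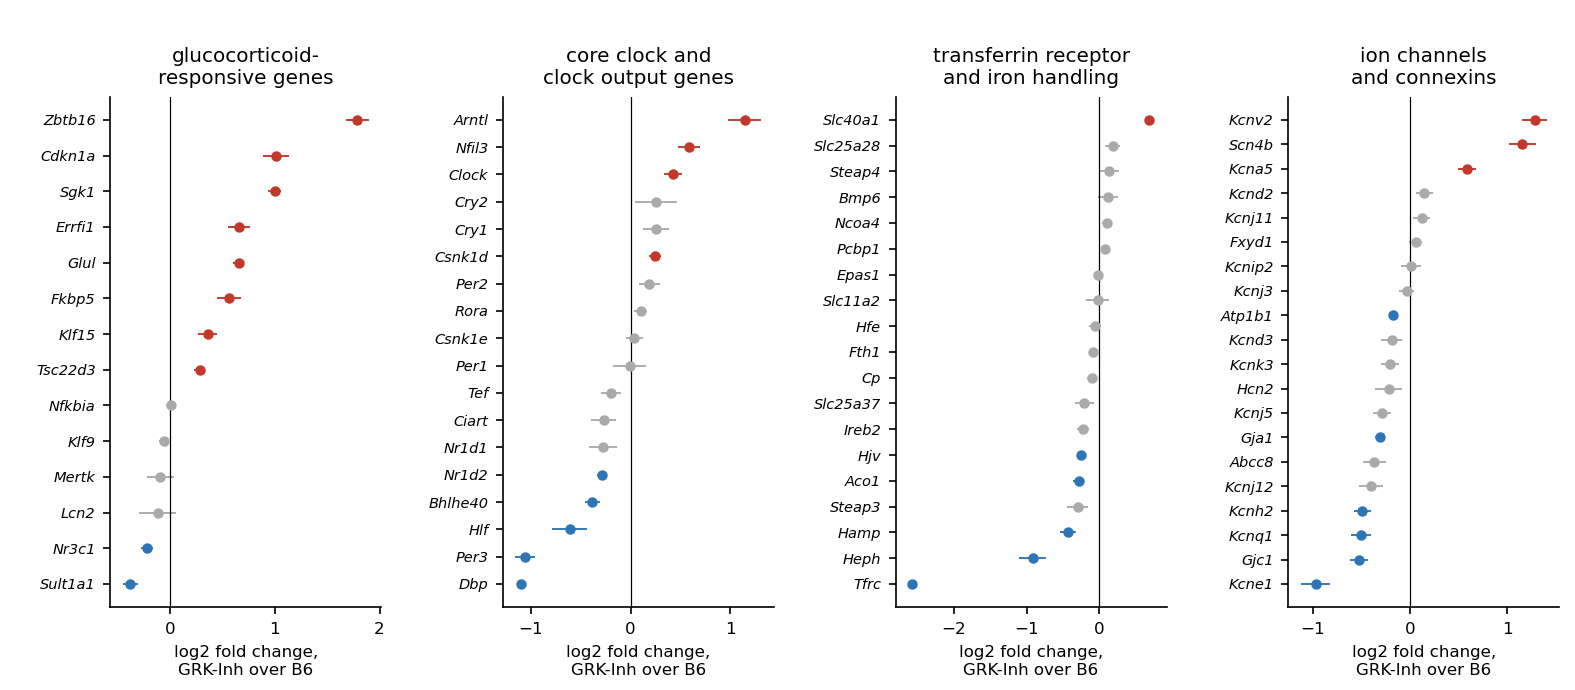
Log2 difference between GRK-Inh-transgenic and B6 control hearts, with bars of 1 SE, for tested genes of glucocorticoid response, clock, iron handling and ion channels, red called higher, blue called lower, grey not called. Zbtb16 (1.79) lies farthest right and Tfrc (-2.58) farthest left.

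Tfrc, the receptor through which cells take up transferrin-bound iron, was at 1180.0 and 1210.2 on the GRK-Inh arrays, 7504 and 7303 on the control arrays and 1795 and 1712 on the RKIP arrays. Its difference of -2.58 was accompanied by -0.87 and -1.43 on 2 dimmer probe sets. Slc40a1, the iron exporter ferroportin, rose from 936 and 902 to 1467 and 1572. Of 19 iron genes 1 rose and 5 fell, and with arrays left out in turn 2, 4, 3 and 1 fell. Ireb2, which binds iron-responsive elements, stood at -0.22 and Fth1, ferritin heavy chain, at -0.08, neither called.

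Of 13 retinoid genes 3 rose and 3 fell. In this list, the degrading enzyme Cyp26b1 was at 12.8 and 30.8 against 246 and 269.7 and the esterifying enzyme Lrat at 2.19 and 25.4 against 207 and 187. GRK-Inh signals of both lay below the filter level of 50.2, and their differences ranged over -2.90 to -1.05 and -2.95 to -0.89 with the alternatives. Dhrs3, which reduces retinal, rose from 570.3 and 691 to 988 and 982 (0.61 ± 0.098, adjusted p = 0.00202). Of 17 metal genes 4 rose and 2 fell, led by the metallothionein Mt1, at 9739.6 and 9719 against 6047 and 6259, while Mt2 rose by 0.24. With arrays left out in the order above, 1, 1, 2 and 1 metal genes rose. Aqp4, a water channel, fell from 505 and 503 to 154 and 143.

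Among the regulators of fuel use, Ppargc1a, the coactivator of mitochondrial growth, rose from 2820.4 and 3052 to 4448 and 4822, and Ppara, the nuclear receptor of fatty acid oxidation, from 711 and 808 to 1134 and 1128. Ucp3, a mitochondrial carrier, fell from 699 and 789 to 309.7 and 322, and Angptl4, a lipoprotein lipase inhibitor, from 706 and 638 to 321 and 367. Of 25 members 7 rose and 4 fell. Pdk4, which blocks pyruvate dehydrogenase, was at 11115 and 11626 on the GRK-Inh arrays, 8971 and 8888 on the control arrays and 4749 and 4863 on the RKIP arrays. It rose against control (0.35 ± 0.041, adjusted p = 0.000273), was lower in RKIP hearts than in control (-0.89), and differed between the lines by 1.23 ± 0.041, adjusted p = 3.23e-08. Of the 25 beta-oxidation genes 5 rose and 0 fell, with Acot1, a thioesterase, at 770.1 and 611 against 439.7 and 418, and with arrays left out 2, 3, 3 and 3 rose.

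Glucose genes gave 7 higher and 0 lower of 26, and 3, 2, 3 and 3 higher with arrays left out. Ppp1r3c, a glycogen-targeting phosphatase subunit, rose from 3189.8 and 2953 to 5023 and 5078. Of 21 genes of ketone and branched-chain amino acid use, 5 rose and 0 fell, and 2, 3, 4 and 2 rose with arrays left out. Bdh1, a ketone body dehydrogenase, was at 1048 and 1022 against 638 and 581, and higher still in RKIP hearts (1719 and 1626). Of 23 genes of fatty acid and triglyceride synthesis, 4 rose and 3 fell, and 3, 2, 3 and 3 rose with arrays left out. Among them Scd1, a fatty acid desaturase, was at 1551 and 1525 on the GRK-Inh arrays, 803 and 665 on the control arrays and 437 and 472 on the RKIP arrays, so that the lines differed in opposite directions from control. Scd2, a second desaturase, fell by 0.83, and Agpat2, an acyltransferase, by 0.75. Of 20 cholesterol synthesis genes none rose and 1 fell, the reductase gene Hsd17b7 (-0.97 ± 0.089, adjusted p = 5.44e-05). The shares over all tested genes were 5.86% higher and 7.27% lower.

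The lists of this paragraph are set beside the shares over all tested genes, 5.86% higher and 7.27% lower. Among subunits of oxidative phosphorylation, 1 of 73 rose and 9 fell, with a median of -0.06. The lower calls became 2 with quantile normalization, 2 with the arrays shifted to one median and 3 with no filter, and the median -0.02 in both scalings. Leaving out B6 array 1, or GRK-Inh array 1, left 1 of the lower calls, and the list counts over the 4 arrays were 1, 2, 1 and 7. The ribosomal list had 1 higher and 4 lower of 42 and the proteasome list 6 and 0 of 32, with 2, 1, 2 and 2 lower ribosomal genes and 1, 3, 5 and 2 higher proteasome genes when arrays were left out. Lower ribosomal genes became 2 with quantile normalization and 1 with the arrays shifted to one median. Without a variance trend no gene of the oxidative phosphorylation, ribosomal or proteasome lists was called.

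The autophagy genes Gabarapl1 and Sqstm1, a membrane-coupled protein and the receptor of ubiquitinated cargo, rose from 675 and 561 to 1098 and 995 and from 1467 and 1489.8 to 2288 and 2408. Trim54, a ubiquitin ligase of the sarcomere, rose from 1342 and 1483 to 2587 and 2589.7 and was lower than in RKIP hearts (3190.4 and 2976). Of 16 members 5 rose and 1 fell. Among NRF2 and glutathione genes, 5 of 23 rose and 1 fell, with 2, 2, 3 and 3 rising with arrays left out, and Gstm2, a glutathione transferase, was at 942 and 1027 against 683 and 665.

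Extracellular matrix genes are made largely by fibroblasts, and more fibroblast markers fell than rose. Some of these markers, such as Lum, encode matrix proteins themselves. Of 51 matrix genes 5 rose and 26 fell, with a median of -0.32. In RKIP-transgenic hearts 1 rose and 28 fell against control. The fibrillar collagen gene Col1a1 was at 296 and 241 against 646 and 646 and Col3a1 at 6018 and 6327 against 11888 and 13061, and for both the RKIP arrays (282 and 259, and 6065 and 6109.7) lay near the GRK-Inh arrays. The basement membrane genes Col4a2 and Col4a5 fell by 0.73 and 0.72, and Col4a1 by 0.51, where RKIP hearts were lower still (0.75 ± 0.054, adjusted p = 1.26e-05). Elastin, Eln, fell from 365 and 377 to 167 and 186.

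The 5 matrix members that rose were P4ha1, P4ha2, Serpinh1, Timp4 and the metalloproteinase Mmp3. P4ha1 and P4ha2, the catalytic subunits of prolyl hydroxylase, rose from 344 and 361 to 833 and 768 and by 0.70, and the collagen chaperone Serpinh1, which is also a heat shock gene, was at 5018 and 5222 on the GRK-Inh arrays, 4035 and 4317 on the control arrays and 2271 and 2286 on the RKIP arrays. Timp4, an inhibitor of metalloproteinases, rose from 827 and 787 to 2694 and 2685, and a further probe set gave 1.60. Among other collagen-modifying enzymes in the list, the cross-linking Loxl1 fell by 0.60, and Lox (-0.44) and the lysyl hydroxylases Plod1 (-0.22) and Plod2 (-0.13) were not called.

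Of 20 fibroblast markers 0 rose and 11 fell, with a median of -0.35, and 8, 9, 7 and 8 fell with arrays left out. Their summed signal was 60649.6 and 61389 on the GRK-Inh arrays, 74496 and 73495 on the control arrays and 63451 and 65761 on the RKIP arrays. Lum, a proteoglycan of collagen fibrils, fell from 5124 and 5635 to 3222 and 3187. In RNA of whole hearts, fewer cells of a type and less RNA per cell cannot be told apart, and the part of fibroblast RNA in the matrix result was not tested. Smooth muscle and pericyte markers gave 0 higher and 3 lower of 14 tested. The 15 measured had a summed signal of 19947 and 19853 against 23508 and 22987.

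The growth hormone and insulin-like growth factor axis was lower in several members, with 1 of 21 higher and 7 lower and a median of -0.20. Igf1 was at 642 and 645 on the GRK-Inh arrays, 1359 and 1305 on the control arrays and 860.2 and 833 on the RKIP arrays (-0.995 ± 0.07, adjusted p = 7.23e-06). The binding proteins Igfbp3 and Igfbp5 fell by 0.54 and 0.48, and Socs2, a brake on growth hormone signalling, from 3019 and 2942 to 2339 and 2223. Among 8 tested imprinted growth regulators 4 fell and none rose, namely Igf2, from 779.6 and 869 to 291 and 327, Plagl1, from 2066 and 1957 to 871 and 911, Ndn by 0.71 and Peg3 by 0.52. RKIP-transgenic hearts had 4 lower and 0 higher against control too, and the list's median difference between the lines was 0.01.

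Lists of inflammation and proliferation are set here beside the shares over all tested genes, 5.86% higher and 7.27% lower. Of 17 NF-kB genes none rose and 2 fell, of 27 interferon and MHC class I genes 3 rose and 4 fell, and of 21 cell cycle genes none rose and 2 fell. Of 18 genes of p53 and cell death 1 rose and 3 fell. Gadd45a, a growth arrest gene, fell from 921 and 815 to 358 and 376, and Cdkn1c, another inhibitor of the cell cycle, by 0.79. Interferon calls numbered 2, 1, 3 and 1 higher and 3, 2, 2 and 2 lower with arrays left out.

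Among immune markers, the macrophage genes gave 1 higher and 5 lower of 19 tested. Fewer were lower with an array left out, and 3 with the arrays shifted to one median. The summed signal of the 20 measured macrophage genes was 17226 and 17171 against 19319 and 19707. Csf1r, the receptor of the macrophage growth factor, fell by 0.46, whereas Lyve1, a hyaluronan receptor of lymphatic endothelium and resident macrophages, was at 1178 and 1255, against 851 and 810.0 in controls and 664 and 692 in RKIP hearts. The immunoglobulin gene Ighm was at 848 and 837 on the GRK-Inh arrays, 188 and 156 on the control arrays and 109 and 103 on the RKIP arrays. Its other bright probe sets gave smaller differences, 1.23, 0.45 and 0.25. On the probe set with 0.45, signals were 101 and 120 in GRK-Inh, 66.2 and 68.3 in control and 125 and 157 in RKIP hearts. On the probe set with 0.25, RKIP signals of 178 and 88.9 were above control as well. Jchain, which joins immunoglobulin units, rose from 37.5 and 60.7 to 149.7 and 246. The 8 measured genes of the B cell list, 5 of them tested, had a summed signal of 1336 and 1490.0 against 503 and 476. Ighm made up more of the GRK-Inh sum than any other gene. The membrane marker Ms4a1 was not called, at 96.4 and 93.2 against 64.4 and 35.3. Cd79a, Cd79b and Pax5, which the sum includes, lay near or below the filter and were not tested. The part of B cells in this was not tested. Endothelial markers gave 1 higher and 3 lower of 17, and 2, 1, 3 and 1 lower with arrays left out. The shares over all tested genes were 5.86% higher and 7.27% lower. MHC class II genes gave 1 higher, H2-Aa, at 3614 and 3507 against 2777 and 2889, and 1 lower. Few markers of other tissues were bright enough to be tested, 2 of T cells, 1 of red blood cells, 3 of nerve, 2 of skeletal muscle, 1 of lung and 1 of thymus, and none was called. The nerve gene Snap25, below the filter, was at 64.3 and 76.3 on the GRK-Inh arrays, 0.51 and 0.79 on the control arrays and 0.87 and 0.46 on the RKIP arrays.

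Of the 20 largest rises and 20 largest falls, 25 genes had further probe sets, and all 39 probe sets that were at or above the filter level, in 22 genes, had the sign of the main one. Sizes could differ, with 0.34 against 1.52 for Cpxm2 and 0.46 and 1.10 against 1.39 for Tlr4. Prune2 gave 0.38, 0.88 and 1.48 against 1.37. Some large changes were outside the lists. Cpxm2, a carboxypeptidase-like protein gene, was at 637 and 689 against 193 and 203, close to the RKIP level of 666 and 635, and Tlr4, the lipopolysaccharide receptor, rose from 234 and 244 to 704 and 714. The transcription factor gene Sox4 fell from 7465 and 7279 to 2553 and 2652, with 4681 and 4798 in RKIP hearts. Tet1, a methylcytosine dioxygenase, fell from 366 and 374 to 80.04 and 117. Bmp10, a growth factor mainly of the atria and itself a list member, fell from 417 and 313 to 94.3 and 111. Of the 12 tested genes of atrium and conduction tissue none rose and 2 fell, Bmp10 and the nuclear receptor gene Nr2f2 (-0.47 ± 0.075, adjusted p = 0.00199), while Myl7 (0.01) and Sln (-0.02) were not called.

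Of 6 tested genes listed as candidates for differences between B6 substrains, 2 fell and none rose. Wdfy1, an endosomal protein gene, was at 137 and 117 on the GRK-Inh arrays, 538 and 484 on the control arrays and 546 and 563 on the RKIP arrays, and its other bright probe sets gave -1.65, -2.01 and -1.15. Nnt, a mitochondrial transhydrogenase that is deleted in part in one B6 substrain, was at 7999.6 and 8267, 13165 and 13017 and 10704 and 11828 in the same order (-0.68 ± 0.048, adjusted p = 7.28e-06). The labels give the background as B6 with no substrain, and its part in the differences was not tested.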

How the data were processed

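RNA of mouse hearts was measured on 6 Affymetrix arrays, 2 each for GRK-Inh-transgenic, B6 control and RKIP-transgenic mice. Per the labels' protocols, total RNA from a column kit was made into biotinylated cRNA. Each probe set has a deposited intensity, a linear signal scaled by the authors. The submitters' processing notes name GCOS without a version. The precision is limited by the number of arrays: the median SE of a log2 difference was 0.115.

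Of 45101 probe sets, 64 were controls, 34945 had one symbol, 932 several and 9160 none. After log2 of signal plus 50, genes with a mean of at least 6.65, the median over probe sets (a signal of 50.2), entered the test. It used limma 3.58.1 (R 4.3.3) on all 6 arrays, with a trend in the variance, 3 residual and 7.60 prior degrees of freedom and Benjamini-Hochberg adjustment, two-sided. In simulated data for this comparison on 11254 genes, 60% of changes of 0.5 and 95% of changes of 1 were called, and 14 of 169 calls were false. The simulation changed 100 genes by each size and used independent normal errors, while the data gave 1477 calls. Its rates therefore need not hold for the data. Replicate numbers did not pair the arrays (correlation of deviations 0.026, -0.030 and -0.035).

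The 55 lists and their members were chosen with earlier results of these data known, and list members without a probe set were not analysed here. Named genes (191) were, by rule, the 20 largest rises and 20 largest falls among calls without overlap between groups, per list the 4 called members of largest difference (2 of highest signal in lists with no call), the receptor kinases and arrestins, and a few fixed genes. Further list members and other genes in the text were chosen after their values were seen. Promoter windows are RefSeq's (GRCm38.p6). Alternatives were other normalizations, offsets, filters, probe set choices, variance models, thresholds, the replicate block and arrays left out. Plots used matplotlib 3.10.9 in Python 3.11.15.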

Additional observations from a re-analysis of the deposited data

Results flagged for a closer look

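In 31 tested genes the 2 transgenic lines were called in opposite directions against control, with the difference of the lines called in limma too, and 16 of these were members of the lists or named genes. GRK-Inh-transgenic hearts exceeded RKIP-transgenic hearts by 2.54 for Egr1, 2.52 for Ighm, 1.98 for Ccn2, 1.66 for Scd1, 1.36 for Dusp1, 1.23 for Pdk4 and 1.15 for Serpinh1 on the log2 scale. For Ighm this holds for the main probe set, while the probe sets that differed from control by 0.45 and 0.25 had RKIP signals above control. The difference was 0.94 for Pdia4, 0.80 for Lyve1, 0.77 for Mt2, 0.77 for Atp7a, 0.69 for Mgll, 0.66 for Dusp6, 0.66 for B2m and 0.55 for H2-Aa. Cish, a feedback inhibitor of cytokine signalling, went the other way (-0.70), at 1323 and 1328 in GRK-Inh hearts, 1699 and 1706 in controls and 2217 and 2157 in RKIP hearts. Atp7a, a copper transporter gene, was at 538 and 571 in GRK-Inh hearts, 424 and 436 in controls and 298 and 312 in RKIP hearts, and its call against control was lost under 6 of 15 alternatives.

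Probe sets with several gene symbols or none were kept out of the gene-level comparison. Of 2748 bright enough to be tested, 187 were called, 79 higher and 108 lower (6.8%), with 10 higher and 8 lower at least 2-fold. One probe set with 5 symbols was at 1138 and 1067 in GRK-Inh hearts against 142 and 158 in controls, and another with 3 symbols at 449 and 380.3 against 2304 and 2212.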

How the results depend on the processing

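Of 173 named genes called against control, 107 kept their call in every alternative run for them, 66 lost it in at least 1 and 0 reversed; Nppa gained a call in 2. Variance without trend took away most, 54. The total of 1477 called genes became 769 at an adjusted p under 0.01, 2243 under 0.10, 731 without trend, and 896 to 921 with an array left out. Higher genes (659) became 355, 993 and 306 in the same order, 1046 with all probe sets, and 396 to 458 with an array left out. Lower genes (818) became 414, 1250 and 425, and 453 to 512 with an array left out. Genes at least 2-fold different (69) became 110 with an offset of 16, 32 with an offset of 200, 45 at the stricter filter, 129 with all probe sets and 76 to 93 with an array left out. Of these, the higher (38) became 21 with an offset of 200 and 71 with all probe sets, and the lower (31) became 59, 11, 17 and 58 in the order of the total, and 33 to 50 with an array left out. Against RKIP-transgenic hearts, 993 became 416 at p under 0.01, 1508 under 0.10, 617 with no filter, 255 without trend and 465 to 542 with an array left out. The higher (490) became 241, 146 without trend and 246 to 313, and the lower (503) became 175, 799, 318 with arrays shifted to one median, 284 with no filter, 109 without trend and 219 to 249. Of 33 list counts of at least 4 genes, 22 fell by more than 1.5 times without trend, 9 with no filter and 11 to 14 with an array left out. Quantile normalization and the shift to one median each moved 4. With the replicate block, 1434 genes were called against control and 905 against RKIP-transgenic hearts. The cause of these shifts was not tested. Few arrays, dim genes whose size depends on the offset, and lists with few calls limit what can be read from single genes.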
